A study of Mus musculus with 6 samples.

Results

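The 9 genes described here encode receptors for the main cytokines of blood formation: Kit and Flt3 for stem cell factor and FLT3 ligand, Il7r for interleukin-7, Csf1r, Csf3r, Csf2ra, Csf2rb and Il3ra for myeloid cytokines, and Epor for erythropoietin. They were taken as a named list, and each was read from the probe set with 1 gene symbol and the highest mean over all arrays; every one of the 9 had 1 such probe set, among 22180 genes in all. The cells were LSK cells, the lineage-negative, Sca-1-positive, c-Kit-high fraction of mouse bone marrow that holds the stem cells and multipotent progenitors. They came from male mice 8 weeks old, either WT or with a tamoxifen-inducible conditional deletion of Ctcf (the knockout). Each group had 3 arrays, each labelled a biological replicate, and these labels do not give the number of animals per array. Mice of both groups received 2 mg of tamoxifen on each of 3 days, and marrow was sorted 24 hours after the last dose. The series mentions mice with CreER alone, but the control label reads only WT, and it is not known here whether those controls carried CreER, which promoter drives it or which exons are removed.

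Cytokine receptors of this kind fall into a pair of families. KIT, FLT3 and the CSF1 receptor are receptor tyrosine kinases, which carry their own kinase domain, whereas the receptors for interleukin-7, interleukin-3, GM-CSF, G-CSF and erythropoietin have none and signal through JAK kinases and STAT factors bound to their tails. Within LSK cells high FLT3 marks progenitors that have lost long-term stem cell activity, and the appearance of the interleukin-7 receptor chain marks the lymphoid branch. G-CSF and CSF1 receptors accompany the granulocyte and monocyte branches and the erythropoietin receptor the red cell branch.

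Values are log2 probe set signals after RMA, and a difference is knockout minus WT on that scale. Array medians over all probe sets lay between 5.99 and 6.07. Of the genes that define the gate, Kit is described below with the other receptors, and Ly6a, which encodes Sca-1, was not analysed here. Among other genes of immature cells, Cd34 gave 11.97 ± 0.05 on the WT arrays and 11.95 ± 0.14 on the knockout arrays (SD, n = 3 each). Hlf, a transcription factor gene of stem cells, gave 10.40 ± 0.11 and 10.25 ± 0.15 (SD, n = 3 each). This list of 8 measured genes, Kit and Flt3 among them, had 2 positive and 6 negative differences, with a median of -0.09. Slamf1 differed by 0.33 (SE 0.11, limma adjusted p = 0.532), its knockout arrays all above its WT arrays, as for 7.96% of all genes. Mecom differed by -0.28 (SE 0.13, limma adjusted p = 0.643). Ctcf, the targeted gene, was at 8.35, 8.59 and 8.73 in WT and at 7.58, 7.78 and 7.86 in the knockout, a difference of -0.82 (SE 0.13) that missed the threshold (limma adjusted p = 0.104). The arrays give no detection call, so a low signal shows neither presence nor absence, and the levels of different genes are not compared; a signal summed over a list weighs its bright probe sets most.

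Of the 9 receptors 1 passed the test: Il7r fell, and the other 8 missed the threshold of an adjusted p of 0.05 by limma with Benjamini-Hochberg adjustment over all genes. Of all genes 0.0721% passed, 0.0451% lower and 0.0271% higher. The receptors had 6 negative and 3 positive differences, where 45.3% of all genes had negative ones, with a median of -0.08 against 0.02 over all genes; leaving out 1 array at a time gave medians from -0.13 to -0.014, the latter without WT replicate 1. The signs of Csf1r, Csf2ra, Csf2rb and Il3ra, whose differences were within 0.08 of 0, changed in 3 to 7 of 17 other settings. The median absolute difference was 0.080, against 0.107 over all genes. For 2 of them, Il7r and Kit, the 3 knockout arrays all lay below the 3 WT arrays, which was so for 5.32% of all genes. No receptor had all knockout arrays above all WT arrays, as 7.96% of genes did, and in either direction the groups of 13.3% of genes did not overlap. The members were chosen with results of these data known, so these counts describe the list and do not test it.

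**Figure D1:**
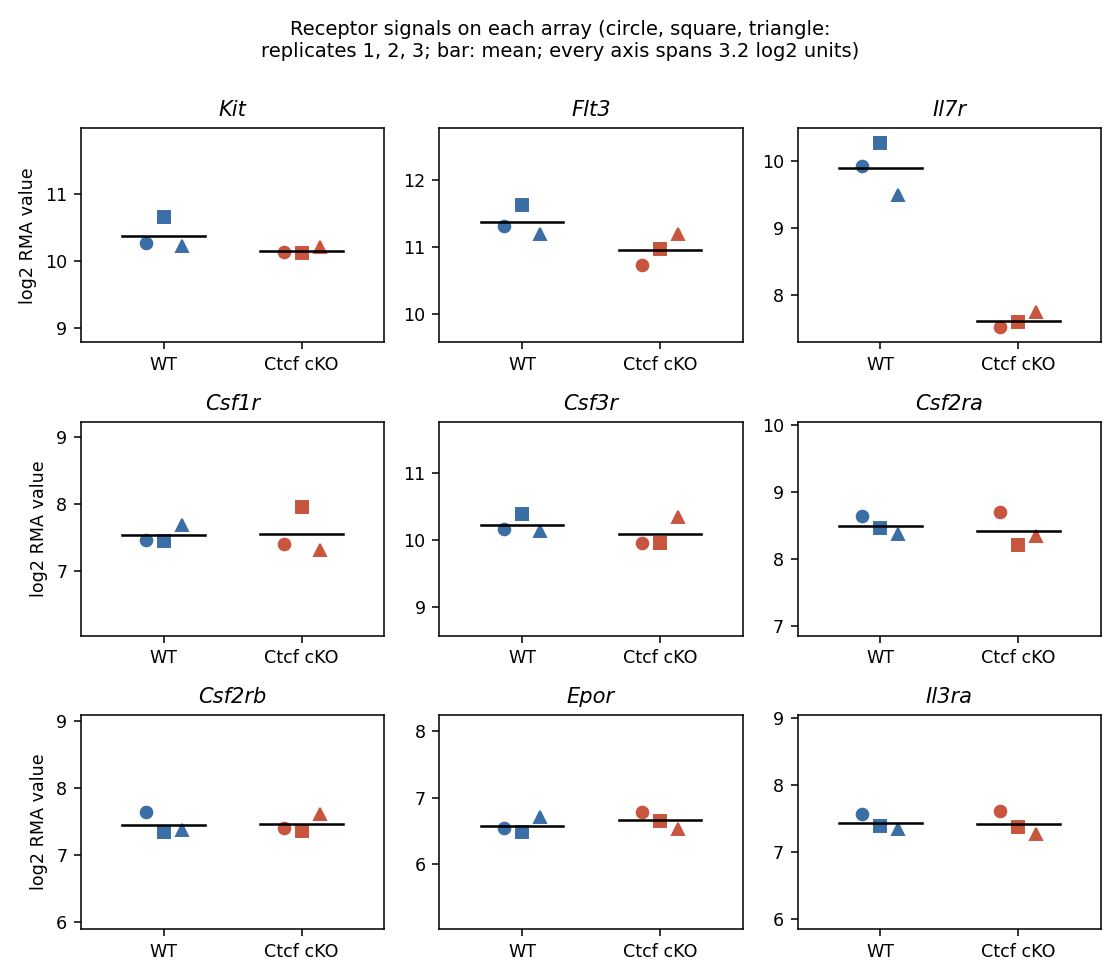
Log2 RMA signal of each receptor on each of the 6 arrays, with WT in blue and the Ctcf knockout in red; symbols mark replicates 1, 2 and 3 and bars the group means. Every panel spans the same number of log2 units: the Il7r groups lie 1.75 apart at their nearest points, while those of the other panels touch or overlap.

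Il7r encodes the chain that binds interleukin-7 and, with another partner chain, thymic stromal lymphopoietin. Its signal was 9.93, 10.27 and 9.49 on the WT arrays and 7.52, 7.60 and 7.74 on the knockout arrays. The groups were far apart, since the lowest WT array lay 1.75 above the highest knockout array while the WT arrays spanned 0.77 and the knockout arrays 0.22. Group means were 9.90 ± 0.39 for WT and 7.62 ± 0.11 for the knockout (SD, n = 3 each), and the signal fell by 2.28 on the log2 scale (SE 0.18, 95% interval -2.70 to -1.86, limma adjusted p = 0.00672). On the linear scale the knockout signal was 20.6% of that in WT, with an interval from 15.4% to 27.6%. Among all 22180 genes this was the difference of rank 6 from the lowest and rank 7 by absolute size, and the p-value of rank 2. A two-sided exact permutation test gave p = 0.1, its lower limit for 3 arrays against 3. In bulk RNA fewer cells that express a gene and less RNA per cell cannot be told apart.

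The fall of Il7r was present whichever array was left out, with a difference between -2.48 and -2.09. It passed in 5 of these 6 fits and missed without knockout replicate 1, where the difference was -2.23 and the adjusted p 0.0606; in that fit limma called 0 genes in all, and 1725 were below 0.05 before adjustment. Over all 17 other settings the adjusted p of Il7r lay between 0.00293 and 0.165.

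The promoter of Il7r is shown because this is the receptor gene whose RNA fell, and that of Kit for comparison, as the receptor that defines the gate. Both are the 250 bases upstream of a RefSeq transcript start in GRCm38.p6, written 5′ to 3′ on the gene's strand, at chr15:9529877-9530126 on the minus strand for Il7r and chr5:75574737-75574986 on the plus strand for Kit, which has another listed start close by. Capitals mark CCCTC or its reverse complement GAGGG, the letters that gave CTCF its name, and CAGGAAGT or its reverse complement ACTTCCTG, a sequence of the kind bound by ETS factors such as PU.1 and GABP.
Il7r: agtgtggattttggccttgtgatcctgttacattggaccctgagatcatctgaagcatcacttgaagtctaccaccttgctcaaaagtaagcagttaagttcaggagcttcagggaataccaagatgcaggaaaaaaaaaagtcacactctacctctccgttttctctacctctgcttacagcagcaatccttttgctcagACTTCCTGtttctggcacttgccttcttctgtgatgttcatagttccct
Kit: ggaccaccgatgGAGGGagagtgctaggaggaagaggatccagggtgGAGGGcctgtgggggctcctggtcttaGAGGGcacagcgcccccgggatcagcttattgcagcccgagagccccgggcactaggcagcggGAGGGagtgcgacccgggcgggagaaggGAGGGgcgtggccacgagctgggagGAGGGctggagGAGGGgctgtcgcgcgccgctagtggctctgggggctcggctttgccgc

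In the window of 300 bases that runs from 250 before to 50 after the start, the promoter table held 7 of the 9 receptors; Csf1r and Csf2rb were not in it. CCCTC on either strand was found in 5 of the 7, which were Kit, Il7r, Csf3r, Csf2ra and Il3ra, and in 66.0% of all 32851 promoter windows. Kit held 7 copies, all as GAGGG, and Il7r 1, which lay 38 bases after the start and so outside the printed stretch. The longer core of the CTCF consensus was found in 0 of the 7 and in 2.43% of all windows. The ETS sequence CAGGAAGT was found in Il7r, starting 49 bases upstream, and in Il3ra, against 3.33% of all windows; it was searched for after the Il7r sequence had been seen. The Il7r window was 45.7% G and C and the Kit window 69.0%, with a median of 52.7% over all windows. The motifs do not overlap in these windows. A match describes letters and is no sign of binding.

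Flt3, the tyrosine kinase receptor of multipotent and lymphoid progenitors, had the next lowest difference. Its signal was 11.30, 11.62 and 11.18 in WT and 10.72, 10.96 and 11.18 in the knockout. The groups met without separating: knockout replicate 3 and WT replicate 3 gave the same signal to 2 decimals. The difference was -0.42 (SE 0.16, 95% interval -0.78 to -0.05), or 75.0% of the WT signal, and missed the threshold over all genes (limma adjusted p = 0.563). Set against each other within the arrays, the change of Il7r minus that of Flt3 was -1.86 on the log2 scale, with no overlap between the groups. The same within-array contrast against each of the other 8 receptors lay between -2.36, for Epor, and -1.86, for Flt3. Each had an exact two-sided permutation p of 0.1, the smallest this design allows, which adjustment over the 8 contrasts left at 0.1. The same Il7r values, whose groups lay far apart, enter all 8 contrasts, so these are not separate tests.

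Kit, the stem cell factor receptor, was at 10.26, 10.65 and 10.22 in WT and 10.13, 10.12 and 10.21 in the knockout. The groups did not overlap but were 0.0081 apart. WT replicate 2 stood above the rest, and the 3 knockout arrays lay within 0.095 of each other. The difference was -0.22 (SE 0.13, 95% interval -0.53 to 0.08, limma adjusted p = 0.727), and without WT replicate 2 it was -0.09. The gate for high c-Kit may itself hold the signal of Kit within limits, which was not tested.

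Receptors of the granulocyte and monocyte cytokines differed by less. Csf3r, the G-CSF receptor of the neutrophil branch, was at 10.16, 10.39 and 10.14 in WT and 9.95, 9.96 and 10.34 in the knockout. Knockout replicate 3 lay among the WT arrays, and the difference was -0.15 (SE 0.14, 95% interval -0.46 to 0.17). Csf1r, the receptor of the macrophage cytokine CSF1, was at 7.47, 7.46 and 7.68 in WT and 7.40, 7.95 and 7.31 in the knockout. The highest and the lowest of its 6 signals were both knockout arrays, and the difference was 0.02 (SE 0.17, 95% interval -0.37 to 0.41). It changed sign with further normalization and with some arrays left out, so no direction can be given. The assembly also holds a Csf1r pseudogene, Csf1r-ps, whose RNA an array probe may not separate from that of Csf1r.

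The chains of the GM-CSF and interleukin-3 receptors showed no separation. Csf2ra, the GM-CSF-binding chain, was at 8.64, 8.47 and 8.38 in WT and 8.70, 8.21 and 8.36 in the knockout, so that knockout arrays held both ends of its range (difference -0.08, SE 0.15). Il3ra, the chain that binds interleukin-3, was at 7.58, 7.39 and 7.35 in WT and 7.62, 7.38 and 7.28 in the knockout (difference -0.01, SE 0.13). Csf2rb, the signalling chain shared by the receptors for GM-CSF, interleukin-3 and interleukin-5, was at 7.65, 7.34 and 7.38 in WT and 7.41, 7.36 and 7.62 in the knockout (difference 0.01, SE 0.13). In all 3 genes the spread within a group exceeded the difference between the groups. Mice also have Csf2rb2, a close copy of Csf2rb that serves interleukin-3 alone; it was at 7.28, 6.97 and 7.98 in WT and 6.92, 7.20 and 7.08 in the knockout (difference -0.34, SE 0.23, limma adjusted p = 0.768). WT replicate 3 alone lay above the other arrays there, and probes may not keep the pair of genes apart.

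Epor, the erythropoietin receptor, was at 6.54, 6.48 and 6.71 in WT and 6.78, 6.66 and 6.53 in the knockout. The groups overlapped, and the difference was 0.08 (SE 0.12, 95% interval -0.19 to 0.35). For the 8 receptors that missed the threshold the interval of the difference lay inside a 2-fold change in either direction, and for 7 of them, all but Flt3, inside a 1.5-fold change. These intervals are for single genes and are not adjusted for their number. RMA compresses differences of dim probe sets.

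**Figure D2:**
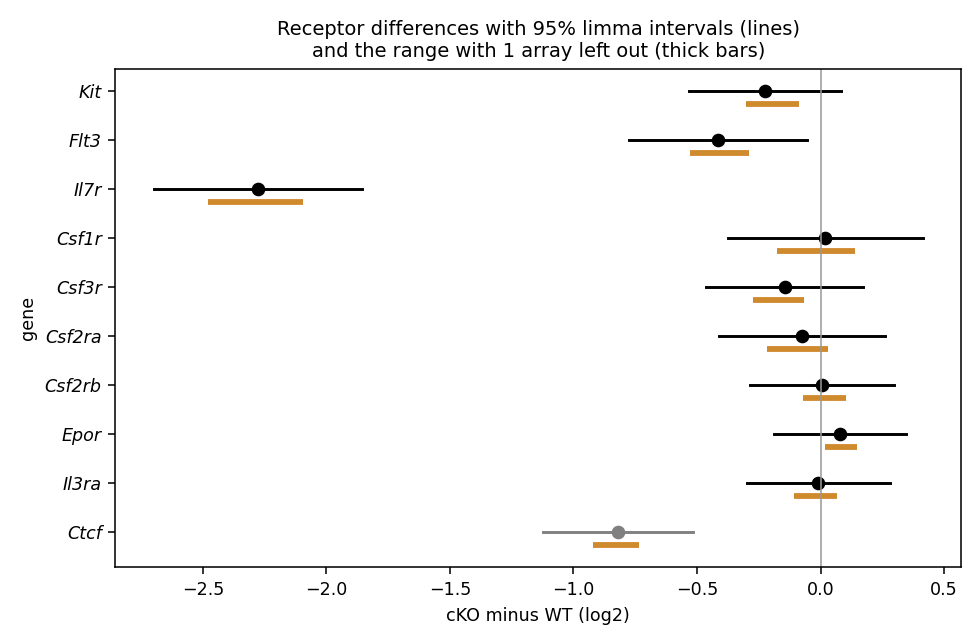
Knockout minus WT difference of each receptor, with Ctcf in grey, on the log2 scale; thin lines are 95% intervals of limma and thick bars the range of the difference with 1 array left out at a time. Il7r lies at -2.28 and the other 8 receptors between -0.42 and 0.08.

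WT replicate 2 gave the highest of the 6 signals for 4 of the 9 receptors, Kit, Flt3, Il7r and Csf3r. The same array was the lowest for proliferation genes. The median centred signal of 11 G2/M genes was -0.90 on WT replicate 2, against -0.17 and 0.21 on WT replicates 1 and 3 and 0.40, 0.48 and 0.08 on the knockout arrays. Mki67, the proliferation antigen, was at 9.82 on that array and between 10.24 and 11.14 on the others. All 11 G2/M genes had positive differences, with a median of 0.55, and of 0.31 without WT replicate 2. None of the 11 passed by limma over all genes, with 7 at an unadjusted p under 0.05, against 8.11% of all genes. The G2/M score thus differed between the groups and not on WT replicate 2 alone. With the array's G2/M score in the model, a setting added after the data were seen, the differences were 0.01 for Kit, -0.14 for Flt3 and 0.06 for Csf3r, and Il7r, at -1.89 (limma adjusted p = 0.0464), was the 1 gene of all that passed; the part of cell cycle state in the result was not tested further.

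Genes whose pattern over the 6 arrays lay nearest to Il7r were found by the root mean square difference of values centred on each gene's mean, among 10193 genes brighter than the median gene. Il7r was the only receptor whose signals spanned at least 1 log2 unit, so the search was made for it alone. Nearest was Slc35d3, a nucleotide sugar transporter family member, at 0.44 log2 units. It was at 8.73, 8.81 and 8.04 in WT and 7.19, 7.02 and 7.08 in the knockout (difference -1.43, limma adjusted p = 0.0649). Rag2, one of the pair of genes that encode the V(D)J recombinase, followed at 0.50, and was at 8.35, 7.80 and 7.74 in WT and 6.51, 6.31 and 6.72 in the knockout. Haao, an enzyme of tryptophan breakdown, came next at 0.53, then the actin-binding calponin gene Cnn3 at 0.59 and the peptide transporter gene Slc15a2 at 0.61. Rag2, Haao and Cnn3 passed (limma adjusted p = 0.0455, 0.0117 and 0.0269), where 0.0721% of all genes did. Slc15a2, like Slc35d3, missed the threshold (limma adjusted p = 0.241). In all 5 the knockout arrays lay below all WT arrays, as for 5.32% of all genes. The groups came closest in Slc15a2, with knockout replicate 3 at 6.98 and the lowest WT array at 7.31. WT replicate 2 gave the highest signal for Slc35d3 and Slc15a2, as for Il7r, and WT replicate 1 for Rag2, Haao and Cnn3. The difference between the groups enters this measure of likeness. Genes picked by it are therefore likely to pass and to show no overlap, and their shares are not a result about them.

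**Figure D3:**
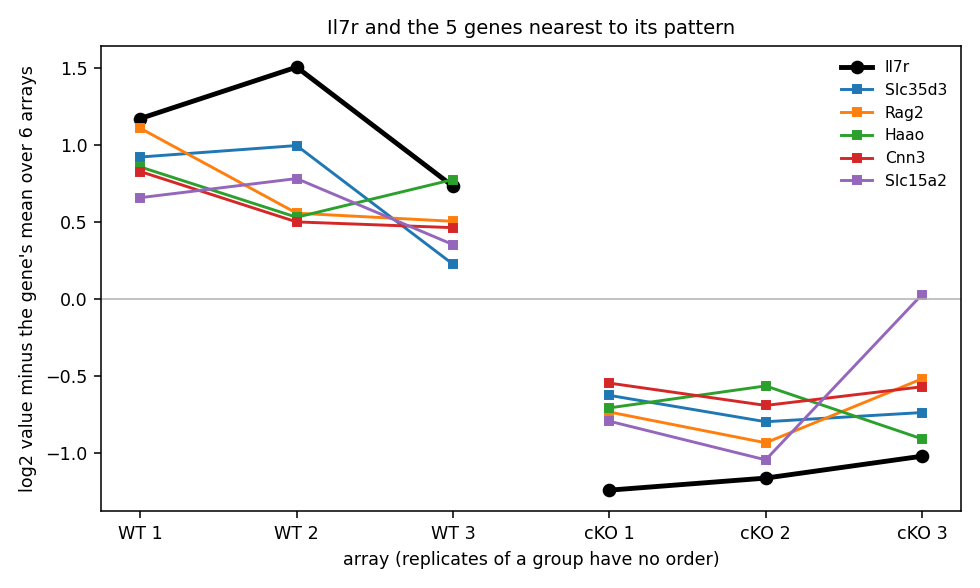
Log2 signal of Il7r (black) and of the 5 genes nearest to its pattern, each minus its own mean over the 6 arrays, by array. All 6 genes have their WT arrays above 0, and 5 have all knockout arrays below 0; Slc15a2 on knockout replicate 3 is the exception.

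Il7r is also expressed by T cells, innate lymphoid cells and B cell precursors, so marker lists of such cells were read on the same arrays. A plasma cell list was read beside them as another list of the B lineage, not as one of cells that express Il7r. B cell markers had negative differences for 8 of 8 genes, with a median of -0.54, and plasma cell markers for 7 of 7, with a median of -0.75; none of these 15 genes passed by limma over all genes, with 2 and 5 at an unadjusted p under 0.05, against 0.0721% and 8.11% of all genes. The log2 of the summed B cell signal ranged from 10.68 to 12.30 in WT and from 10.47 to 10.81 in the knockout, and that of the plasma cell list from 12.41 to 13.49 and from 11.58 to 12.61. Both pairs of ranges overlap. As centred signals, the B cell medians were 0.78, -0.04 and -0.17 in WT replicates 1 to 3 and -0.012, -0.08 and -0.56 in the knockout replicates. Those of the plasma cell list were 0.67, 0.67 and -0.24 in WT and -0.04, -0.05 and -0.94 in the knockout. Igll1, the surrogate light chain gene of B cell precursors, was at 11.01 on WT replicate 1 but at 6.09 and 7.94 on the other WT arrays. With the plasma or the B cell score in the model, settings added after the data were seen, Il7r differed by -2.08 and -2.26 and missed the threshold in both (adjusted p = 0.165 and 0.0775), as did every other gene; by limma 864 and 1383 were below 0.05 before adjustment.

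T and NK cell markers had 4 positive and 7 negative differences with a median of -0.03, and their summed log2 signal ranged from 10.82 to 11.31 in WT and from 11.35 to 11.73 in the knockout. The summed signal did not overlap between groups, with the knockout arrays higher, whereas the centred medians of the list did overlap. Nkg7, a granule gene of NK and T cells and the brightest probe set in that sum, ranged from 9.81 to 10.49 in WT and from 10.67 to 11.15 in the knockout. Cd28, a costimulatory receptor of T cells, was at 6.35, 6.61 and 6.36 in WT and at 5.98, 6.18 and 5.71 in the knockout. Its difference was -0.48 (limma adjusted p = 0.446) with no overlap between groups, as for 5.32% of all genes with the knockout lower. It is named for having the most negative difference of the list, after its values were seen. Cd3e, a chain of the T cell receptor complex, differed by -0.23 with overlapping groups. For markers of type 2 innate lymphoid cells 5 of 6 differences were negative, with a median of -0.12, and the summed log2 signal, from 8.89 to 9.04 in WT and from 8.75 to 8.87 in the knockout, did not overlap between groups; its part in the Il7r result was not tested. The centred medians of this list did overlap, with the lowest WT array at -0.032 and the highest knockout array at -0.026. Icos, a costimulatory receptor in that list, was at 7.12, 7.28 and 7.13 in WT and 6.88, 6.82 and 6.62 in the knockout (difference -0.40, limma adjusted p = 0.411). No list is without signal on these arrays, since RMA gives every probe set a value above 0. What part such cells have in the Il7r result was not tested.

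Beside the myeloid receptors stood larger differences of myeloid markers. All 6 granule genes of myeloid progenitors had positive differences, with a median of 1.00 and no overlap between groups, as for 7.96% of all genes. None passed by limma over all genes, with 6 at an unadjusted p under 0.05, against 8.11% of all genes. Elane, neutrophil elastase, was at 11.53, 10.95 and 11.51 in WT and 12.73, 12.64 and 12.24 in the knockout (difference 1.20, limma adjusted p = 0.104). Mature neutrophil markers had 6 of 8 negative differences, with a median of -0.63. Their summed log2 signal ranged from 10.07 to 12.20 in WT, highest on replicate 1, and from 9.38 to 10.24 in the knockout. None of these 8 passed by limma over all genes, with 4 at an unadjusted p under 0.05, against 8.11% of all genes. Ngp, the brightest of them in WT, was at 11.5, 9.08 and 10.59 in WT and 8.37, 8.01 and 7.46 in the knockout. It differed by -2.44 (limma adjusted p = 0.241), without overlap, as for 5.32% of all genes with the knockout lower. Of the monocyte markers 6 of 7 had negative differences, with a median of -0.11. The 4 measured erythroid markers had a median of 0.03, and Gata1, which drives Epor in red cell precursors, differed by 0.12 (SE 0.18). Mast cell and basophil markers had a median of 0.41, and Hdc among them rose by 2.32 on the log2 scale (limma adjusted p = 0.0309).

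**Figure D4:**
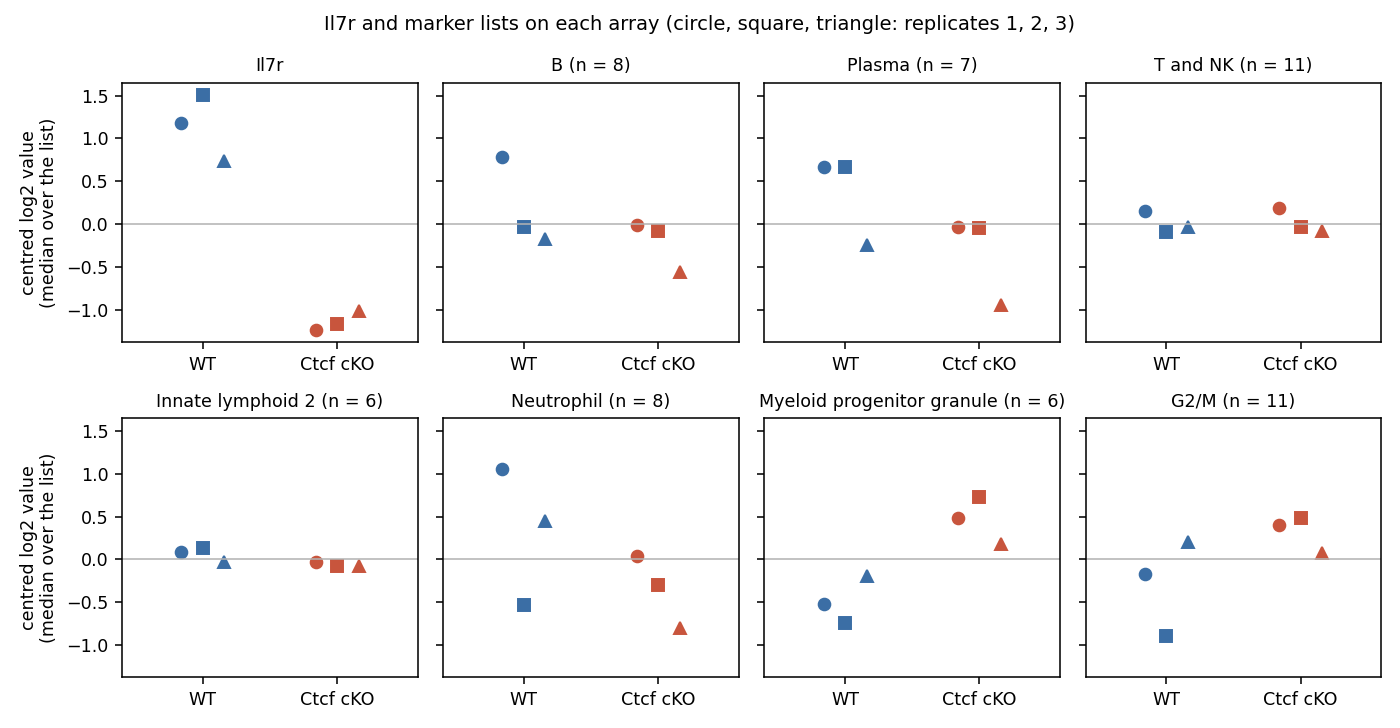
Centred log2 signal of Il7r and the median centred signal of 7 marker lists on each array, with WT in blue, the knockout in red, and symbols for replicates 1, 2 and 3. The Il7r groups are separate, the centred medians of the B cell, plasma cell, T and NK cell, innate lymphoid, neutrophil and G2/M lists overlap, and the myeloid granule list runs the other way.

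The 6 lists of genes around the receptors held 139 measured genes: ligands, other cytokine receptors, JAK-STAT and proximal transducers, feedback inhibitors, receptor target genes and transcription factors of the receptor genes. By limma 0 of the 139 passed over all genes, where 0.0721% of all genes did, with 6 at an unadjusted p under 0.05, or 4.32%, against 8.11% of all genes. The groups did not overlap for 10.1% of them, against 13.3% of all genes.

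The 13 ligands measured had 7 positive and 6 negative differences, with a median of 0.02. Il7, the ligand of the receptor that fell, differed by -0.23 (SE 0.12, 95% interval -0.51 to 0.05), and Kitl, stem cell factor, by 0.18 (SE 0.17). Most ligands of this list are made by marrow stroma, kidney or activated lymphocytes rather than by LSK cells. Among ligands brighter than the median gene the largest differences were -0.09 for Csf1 and 0.04 for Il15.

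Of 34 other cytokine receptors 15 had positive and 19 negative differences, with a median of -0.03. Il13ra1, a chain of the interleukin-13 receptor, had the lowest, -0.75 (SE 0.42), with WT arrays from 6.34 to 7.89. Ifngr2, an interferon gamma receptor chain, was at 8.20, 8.08 and 8.49 in WT and 8.50, 8.69 and 8.60 in the knockout (difference 0.34, limma adjusted p = 0.574), and Pdgfrb, a PDGF receptor, differed by 0.37 (SE 0.15). Crlf2, which pairs with the interleukin-7 receptor chain in the receptor for thymic stromal lymphopoietin, was at 8.19 ± 0.08 in WT and 8.22 ± 0.17 in the knockout (SD, n = 3 each), a difference of 0.03 with an interval from -0.24 to 0.31. Il2rg, the common gamma chain that pairs with it for interleukin-7, was not analysed here.

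The 22 transducers had 11 positive and 11 negative differences, with a median of 0.01. Jak1, the kinase bound to the interleukin-7 receptor chain, differed by 0.03 (SE 0.13) and Jak2, that of the erythropoietin receptor, by -0.01 (SE 0.14). Stat2 and Tyk2, both of interferon signalling, had the lowest differences, -0.26 and -0.23, and Grb2 and Nras, of the RAS pathway, the highest at 0.18 and 0.16. The 22 feedback inhibitors were likewise split 11 to 11, with a median of -0.0016. Socs2, a STAT5-induced inhibitor, differed by -0.47 (SE 0.21) and Spry1, an inhibitor of RAS signalling, by -0.27 (SE 0.13), while Spred2 and Spred1 differed by 0.23 and 0.16. Cish, which cytokines induce through STAT5, differed by -0.14 (SE 0.18).

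Among 18 target genes of these receptors 13 had negative differences, with a median of -0.09. Bcl2, the survival gene that interleukin-7 maintains in lymphoid cells, was at 11.05 ± 0.12 in WT and 10.97 ± 0.21 in the knockout (SD, n = 3 each), a difference of -0.08 with an interval from -0.38 to 0.23. Ccnd1, cyclin D1, was at 7.97, 7.78 and 8.05 in WT and 8.39, 8.57 and 8.64 in the knockout, and Myc at 11.18, 11.15 and 10.90 and at 10.60, 10.30 and 10.84. Their groups did not overlap, as for 13.3% of all genes in either direction. Both missed the threshold, Ccnd1 with a difference of 0.60 (limma adjusted p = 0.206) and Myc with -0.50 (limma adjusted p = 0.459). Bcl2l1 differed by 0.30 and Pim1 by -0.31.

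Transcription factors that act on the receptor genes had 21 of 31 negative differences, with a median of -0.03. Spi1, which encodes the PU.1 needed for Il7r, Csf1r and Csf3r expression, differed by -0.01 (SE 0.15), and Gabpa, an ETS factor of the Il7r promoter, by 0.17 (SE 0.12). Foxo1 and Tcf3, which act in early lymphoid cells, differed by -0.07 and -0.03, and Cebpa, of the granulocyte branch, by 0.10. Gata2, a stem cell and mast cell factor, was at 8.95, 8.91 and 9.01 in WT and 9.29, 9.35 and 9.27 in the knockout (difference 0.34, limma adjusted p = 0.418). Irf8, a monocyte and dendritic cell factor, differed by -0.27 and Hoxa9, a stem and progenitor cell factor, by -0.15. Ebf1, the B cell specification factor, had the lowest difference, -0.95 (SE 0.45, limma adjusted p = 0.642), with knockout arrays at 5.52 ± 0.16 and WT arrays at 6.47 ± 1.12 (SD, n = 3 each). It was at 7.76, 5.76 and 5.90 in WT and 5.50, 5.69 and 5.37 in the knockout. WT replicate 1 alone stood far above the other arrays.

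**Figure D5:**
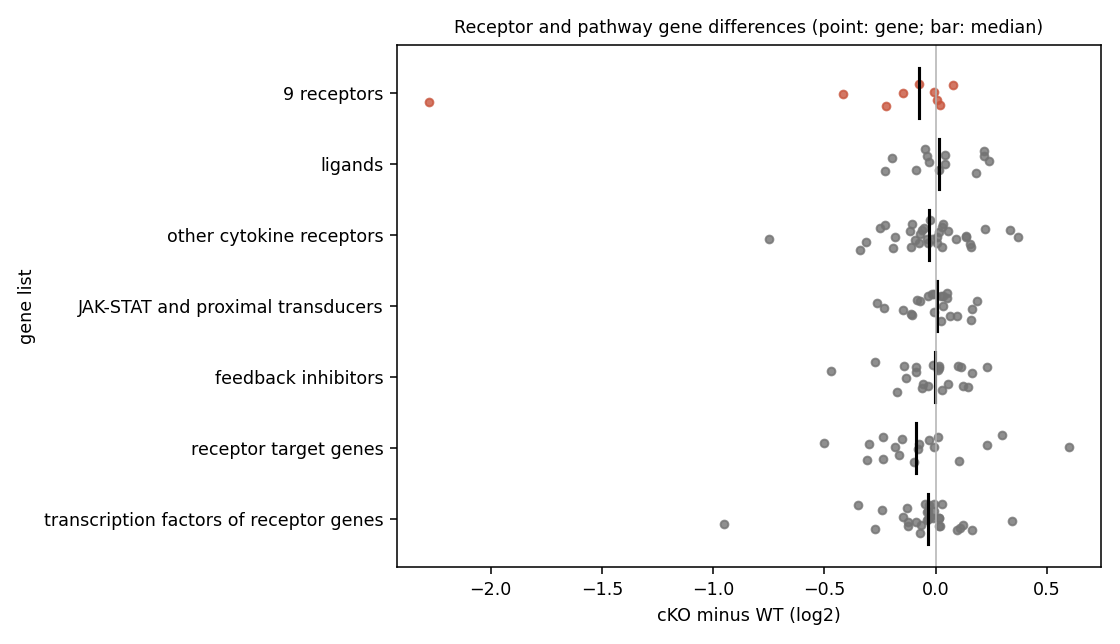
Knockout minus WT difference on the log2 scale of each of the 9 receptors and of each gene in 6 lists around them; points are genes, spread vertically for clarity, and bars are list medians. The medians lie between -0.09 and 0.02, and the single point at -2.28 is Il7r.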

How the data were processed

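The authors deposited log2 values, 1 per probe set and array. Per the submitters' processing notes they were made by RMA with oligo in R, a method that subtracts background, equalises the arrays' distributions by quantile and combines the probes of a set; tool versions, annotation and build were not given in the sources used here. GEO's platform annotation gave 1 symbol for 23521 of 41345 probe sets, and each of 22180 genes was read from its brightest. No filter on low values was applied. Groups were compared by limma 3.58.1 in R 4.3.3 (lmFit and eBayes at default settings, group as the only term, Benjamini-Hochberg over all genes), checked on simulated data. With 3 arrays a group, their number sets the precision. Whether replicates came from separate animals rests on the labels. The members and lists were chosen with earlier results of these data known. Named genes were the 9 members, Ctcf and the 5 genes nearest to a member. Also named were up to 2 genes per direction and list around the receptors, with the largest differences among genes brighter than the median. Of the 3 brightest markers of each cell type and the one with the largest difference, only some are named. Which of these markers to name, and which other genes to name for their role, was chosen after their values were seen. Promoter sequences are RefSeq's, GRCm38.p6. Alternatives varied eBayes settings, weights, filter, normalization, probe set choice, threshold, block and arrays. Whether arrays of the same replicate number belong together is not known here. Correlations of same-numbered arrays' deviations over genes were 0.29, 0.02 and -0.14. Those of arrays with unlike numbers lay between -0.25 and 0.25, so these values do not decide it.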

Additional observations from a re-analysis of the deposited data

How the results depend on the processing

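Il7r kept its sign in all 17 other settings, between -2.48 and -1.89, and its call in 14 of them; the replicate block left it called (adjusted p = 0.0392, in a range over its alternatives from 0.00293 to 0.165). Among the receptors 1 passed, and with 1 array left out 0 to 1. No other receptor and none of the 139 pathway genes passed in any of the 17 fits by limma. The genes called in all, 16, were 25 with trend and robust settings, 7 with the replicate block, 0 to 8 with 1 array left out, 26 at an adjusted p under 0.1 and 56 with a 2-fold change and no adjustment; the cause of these moves was not tested. Whether the replicate numbers pair the arrays is not known here.

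Small differences turned sign or changed in size. With array weights Csf1r was -0.027, from 0.02, and the target gene median -0.037, from -0.09. With further quantile normalization Csf1r was -0.035 and Csf2rb -0.048, and with centring on the brighter genes -0.036 and -0.049. These 2 settings gave medians of -0.049 and -0.086 for the other receptors, -0.048 and -0.058 for feedback inhibitors, and -0.086 and -0.089 for transcription factors; centring gave -0.14 for target genes. Among brighter genes only, the median of the other receptors was 0.017. With 1 array left out Csf1r lay between -0.18 and 0.14, Csf2ra between -0.22 and 0.031, Csf2rb between -0.071 and 0.10, Il3ra between -0.11 and 0.066, the target gene median between -0.17 and -0.031 and the transcription factor median between -0.081 and 0.010. The marker medians then ranged from -0.82 to -0.20 for B cells, from -1.18 to -0.46 for plasma cells, from -1.06 to -0.26 for neutrophils, from -0.19 to -0.0083 for monocytes, from -0.20 to 0.18 for erythroid cells (negative without WT replicate 2 or knockout replicate 1) and from 0.22 to 0.65 for mast cells and basophils (-0.0086 with the G2/M score).

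The 3 marker scores were put in the model after the data were seen. Plasma and B cell scores left 0 genes and 0 receptors called. The plasma score gave 0.029 for Csf2ra, -0.037 for Csf2rb and 0.14 for Il3ra, with medians of -0.0091 for other receptors and -0.0023 for transcription factors; the B cell score gave 0.058 for Csf2ra, 0.13 for Il3ra and a receptor median of 0.0075. The G2/M score left 1 gene called and gave 0.0087 for Kit, -0.17 for Csf1r, 0.060 for Csf3r and -0.059 for Epor, with medians of 0.00024 for other receptors, 0.055 for feedback inhibitors, -0.030 for target genes and -0.0047 for transcription factors. Each such fit has 1 residual degree of freedom fewer. No detection calls or scanner values were used here, so how far dim signals lie above background is unknown.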
